A study of Homo sapiens with 16 samples.

Results

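H2AFX, H1F0 and H1FX are 3 histone variant genes that lie outside the main histone gene clusters, and their RNA was followed here in all 12 RNA libraries of a knockdown series in U2OS, a human osteosarcoma cell line. They are 3 of the 8808 genes in a table of CPM values (counts scaled to a fixed total number of reads) that the authors limited to genes they had called differentially expressed. The members were picked by name after earlier results of the same data had shown them low in siMRGBP cells, so their siMRGBP values are given as a description without a test. The siLuc libraries entered that choice too and are shared by every comparison against siLuc. Differences between the other knockdowns take neither siMRGBP nor siLuc levels, although 1 fit over all 12 libraries gives them an error that both groups enter. The study asked how the MRG proteins act in the complexes that share them. It knocked down 5 genes with siRNA, and a siRNA against luciferase, siLuc, served as the control. MRG15 (gene MORF4L1), MRGX (MORF4L2), MRGBP and TIP60 (KAT5) were each targeted with a pool of siRNAs, BRD8 with 1 catalogue siRNA. All 6 groups, siMRG15, siMRGX, siMRGBP, siBRD8, siTIP60 and siLuc, were unmodified U2OS cultures in normal growth conditions with 2 libraries each. Nothing in the labels tells if both libraries of one siRNA were grown as different cultures, so each p-value reflects only how far such libraries lay apart, and that distance may be technical.

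H2AFX encodes H2A.X, the H2A variant whose tail is phosphorylated around DNA double-strand breaks and then bound by repair proteins. H1F0 and H1FX encode linker histones, which bind the DNA where it enters and leaves the nucleosome; the protein of H1F0 is known for building up in cells that stop dividing. Unlike most histone genes, H1F0 and H1FX are expressed outside S phase from polyadenylated mRNA, and H2AFX mRNA exists in a polyadenylated and a non-polyadenylated form. TIP60 is the acetyltransferase of a complex that acetylates histones H4 and H2A; MRGBP, BRD8 and an MRG protein are subunits of it, and MRG15 and MRGX also belong to other complexes.

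The promoters of the 2 members held by the RefSeq table (build GRCh38.p14) are shown because these genes sat at the low end of all genes in siMRGBP cells. Each run gives the 250 bases before the annotated start, read 5′ to 3′ on the minus strand, with CCAAT or its complement ATTGG and the letters TATAAA in capitals.
H2AFX, chr11:119095466-119095715: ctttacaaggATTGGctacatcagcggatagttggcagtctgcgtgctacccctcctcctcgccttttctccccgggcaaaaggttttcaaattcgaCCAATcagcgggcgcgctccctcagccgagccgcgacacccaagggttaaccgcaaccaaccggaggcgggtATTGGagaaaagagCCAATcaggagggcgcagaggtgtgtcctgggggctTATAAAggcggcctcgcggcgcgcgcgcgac
H1FX, chr3:129316287-129316536: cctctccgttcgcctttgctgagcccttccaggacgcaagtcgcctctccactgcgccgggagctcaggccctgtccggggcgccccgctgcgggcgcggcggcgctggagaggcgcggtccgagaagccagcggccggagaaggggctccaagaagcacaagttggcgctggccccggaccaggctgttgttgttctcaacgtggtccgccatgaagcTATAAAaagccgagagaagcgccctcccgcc

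Both windows held TATAAA, starting 31 bases before the annotated start, and so did 11.1% of the 27305 promoters of the same length. The H2AFX window held CCAAT or ATTGG 4 times, starting 240, 153, 81 and 67 bases before the start. At least 1 such match was found in 33.0% of all promoters and 4 or more in 0.930%, and the H1FX window had none. Neither window held GGGCGG (42.3% of promoters), AAACACA, the letters of the H1 box (4.95%), the E2F-type letters TTTCGCGC or TTTGGCGC (0.996%), or TGACGTCA (1.77%); both strands were searched. A match is a run of letters, and no binding was measured.

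Each siRNA lowered its own target: the targeted RNA stood at 4.58% (MORF4L1), 7.40% (MORF4L2), 7.64% (MRGBP), 24.2% (BRD8) and 13.7% (KAT5) of its siLuc mean. Library sizes recovered from the CPM steps were 57255783 to 110402095 reads, of which the listed genes held 30.4% to 38.2%. Of the mesenchymal and bone markers fixed for U2OS, VIM (1350 to 3034 CPM), FN1 (1231 to 4138 CPM) and COL1A1 (963 to 2334 CPM) were high in every library. RUNX2 (30.4 to 124 CPM), ALPL (9.28 to 108 CPM) and SPP1 (3.92 to 14.8 CPM) were much lower, and SPARC and TWIST1 are not in the table. Of markers of other cell types, the epithelial keratin KRT18 had 45.3 to 148 CPM, CDH1 1.25 to 15.7 CPM, the lymphoid PTPRC 0.193 to 5.97 CPM, and the K562 marker HBA1 between 0 and 6.74 CPM with a median of 0.0166 CPM. The lowest member value rested on 2545 reads, so the counting error of every member value was under 2% of it. The 2 siLuc libraries stood further apart than this for H2AFX and H1FX, and results against siLuc are given with each of them left out where that matters.

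H2AFX RNA fell in siTIP60 cells to 22.5% of its siLuc level, was lower still in siMRGBP cells, and fell modestly in siMRG15 cells. H1F0 fell in siTIP60, siMRG15 and, by a small amount that depended on the scaling, siMRGX cells, and rose in siBRD8 cells. H1FX fell only by a small margin in siTIP60 cells, and its siMRGBP level was 43.9% of its siLuc level. In all 3 genes siMRGBP, whose low levels chose them, gave the lowest level and siTIP60 the next. In these bulk libraries, fewer cells that express a gene and less RNA per cell cannot be told apart. For H2AFX, a poly(A) library may miss the non-polyadenylated form of the mRNA, so its levels may cover only part of that RNA.

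H2AFX had 44.4 and 46.5 CPM in the siMRGBP libraries and 62.6 and 58.2 CPM in the siTIP60 libraries. It had 201 and 200.3 CPM in the siMRG15 libraries, 255 and 266 CPM in the siMRGX libraries and 265 and 267 CPM in the siBRD8 libraries, against 308 and 229 CPM in the siLuc libraries. The siMRGBP, siTIP60 and siMRG15 libraries all lay below both siLuc libraries, whereas the siMRGX and siBRD8 libraries lay between them. The 2 siLuc values differed 1.35-fold, a wider gap than 94.5% of all genes showed in siLuc, while the same ratio was at most 1.08 in any knockdown.

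The siTIP60 mean of H2AFX was 60.4 ± 3.12 CPM and the siLuc mean 268 ± 56.1 CPM (SD, n = 2 each). The fitted difference was -2.12 ± 0.10 (log2 of CPM + 1, estimate ± SE), with an adjusted p of 1.24e-09 in limma, which made H2AFX the 54th lowest of 8808 genes in that comparison. Leaving out either siLuc library moved it only to between -2.33 and -1.90. In siMRGBP cells the mean was 45.5 ± 1.42 CPM, or 16.9% of siLuc, and the log2 difference of -2.52 was the 6th lowest of all genes; this is the value that chose the gene.

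In siMRG15 cells H2AFX averaged 200.7 ± 0.513 CPM and fell by 0.40 ± 0.10 on the log2 scale (limma adjusted p = 0.00403). The size of that fall turned on the siLuc library: it was -0.19 without siLuc replicate 1 and -0.62 without siLuc replicate 2, with an adjusted p of at most 0.0345 over all settings tried. No difference from siLuc was called for siMRGX (-0.03, 95% interval -0.25 to 0.20, limma adjusted p = 0.835) or siBRD8 (0.00, interval -0.23 to 0.23, adjusted p = 0.996). For both, the sign depended on the siLuc library kept. Without siLuc replicate 1 the siMRGX and siBRD8 differences were 0.19 and 0.21, and without siLuc replicate 2 they were -0.24 and -0.21, each past the threshold in limma with adjusted p between 0.00805 and 0.0286. Other scalings also turned the siMRGX difference positive, to between 0.09 and 0.14, without a call.

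**Figure D1:**
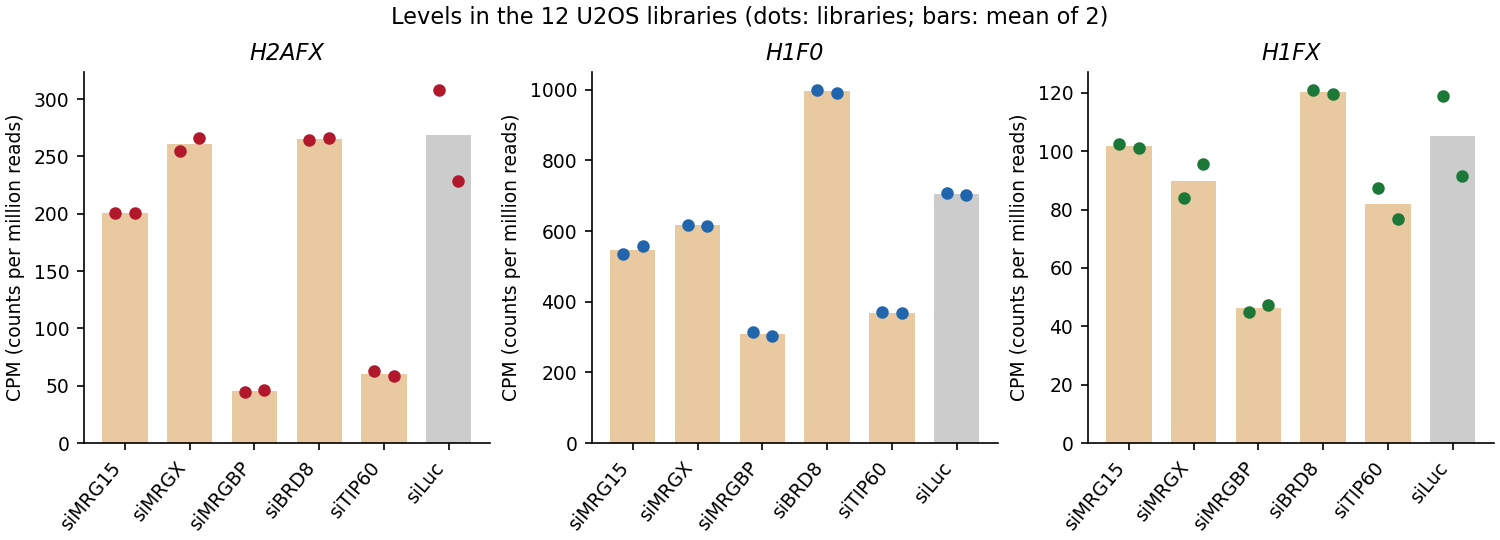
Levels of H2AFX, H1F0 and H1FX in CPM (vertical axes from 0) in the 12 libraries; dots are single libraries and bars the mean of 2, knockdowns in tan and siLuc in grey. In each panel siMRGBP, whose low levels chose the genes, is lowest and siTIP60 next. H1F0 is highest in siBRD8 (999 and 990.5 CPM), and the 2 siLuc dots lie far apart for H2AFX and H1FX but not for H1F0.

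H1F0 replicates differed at most 1.04-fold in any group. The gene had 314 and 303 CPM in the siMRGBP libraries, 369.8 and 369.4 CPM in the siTIP60 libraries and 534 and 558 CPM in the siMRG15 libraries. It had 619 and 615 CPM in the siMRGX libraries and 999 and 990.5 CPM in the siBRD8 libraries, against 709 and 703 CPM in the siLuc libraries. The siBRD8 libraries lay above both siLuc libraries and those of the other knockdowns below both. How many of all genes show such separation was not counted, so it is given as a description.

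H1F0 fell by 0.93 ± 0.06 on the log2 scale in siTIP60 cells (limma adjusted p = 1.37e-08), to 369.6 ± 0.268 CPM against 706 ± 4.09 CPM in siLuc cells (SD, n = 2 each). It fell by 0.37 ± 0.06 in siMRG15 cells (adjusted p = 1.14e-04), to 546 ± 16.9 CPM. It rose in siBRD8 cells by 0.49 ± 0.06 (adjusted p = 1.75e-05), to 995 ± 6.24 CPM or 141% of siLuc; 86.7% of all genes had a change at or below this one. These 3 calls held in all 23 settings tried.

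In siMRGX cells H1F0 averaged 617 ± 2.41 CPM, and the difference of -0.19 ± 0.06 was called with a limma adjusted p of 0.0113. The median of all genes in that comparison was -0.10, and scaling factors that bring it nearer to 0 left an H1F0 difference of -0.03 (median of ratios) or -0.07 (TMM), neither of them called. The call was also lost without either siMRGX library (adjusted p 0.0509 and 0.0598). In siMRGBP cells H1F0 averaged 308 ± 7.67 CPM, or 43.7% of siLuc, a log2 difference of -1.19 and the 180th lowest of 8808.

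H1FX, the gene of the linker histone H1.X, had 45.0 and 47.4 CPM in the siMRGBP libraries and 87.3 and 76.8 CPM in the siTIP60 libraries. It had 84.1 and 95.7 CPM in the siMRGX libraries, 102 and 101 CPM in the siMRG15 libraries and 121.0 and 119.5 CPM in the siBRD8 libraries, against 119.0 and 91.5 CPM in the siLuc libraries. The siLuc libraries differed 1.30-fold, so siMRG15 lay between them and siMRGX overlapped them. The siTIP60 libraries lay below both siLuc libraries and the siBRD8 libraries just above both.

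In siTIP60 cells H1FX averaged 82.1 ± 7.39 CPM against 105 ± 19.4 CPM in siLuc cells (SD, n = 2 each), and it fell by 0.35 ± 0.11 on the log2 scale (limma adjusted p = 0.00944). This call was not stable: it was lost without siLuc replicate 1 (-0.16, adjusted p = 0.118), without siTIP60 replicate 2 (-0.26, adjusted p = 0.0946) and when only those 4 libraries were fitted (adjusted p = 0.0538). H1FX was not called in siMRG15 (-0.04, 95% interval -0.27 to 0.19, adjusted p = 0.762), siMRGX (-0.22, interval -0.45 to 0.01, adjusted p = 0.0877) or siBRD8 cells (0.20, interval -0.03 to 0.43, adjusted p = 0.125). Each of these 3 turned on the siLuc library left out. Without siLuc replicate 2 limma called siMRG15 at -0.23 and siMRGX at -0.40, and siBRD8 was at 0.015 without a call. Without siLuc replicate 1 limma called siBRD8 at 0.39, siMRGX was at -0.029 without a call, and siMRG15 turned to 0.15, also without a call; with TMM factors it was 0.031. In siMRGBP cells H1FX averaged 46.2 ± 1.69 CPM, or 43.9% of siLuc, a log2 difference of -1.16 and the 197th lowest of 8808.

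The gene start of H1FX overlaps the antisense gene H1FX-AS1 in the annotation, and the H2AFX span lies within that of DPAGT1. Whether reads were counted by strand is not given in the sources used here, so reads of overlapping genes cannot be told apart. H1FX-AS1 was at most 1.48 CPM in any library, so it was small beside H1FX.

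Read together by knockdown, 2 of the 3 genes fell in siMRG15 cells and none rose, where 35.8% of all genes in the table were called lower and 33.5% higher. In siMRGX cells 1 of 3 fell, against 40% of all genes lower and 28.2% higher. In siBRD8 cells 1 of 3 rose and none fell, against 28.3% higher and 25.9% lower. In siTIP60 cells all 3 fell, against 37.7% lower and 41.1% higher. In siMRGBP cells all 3 were lower, against 32.9% lower and 32.1% higher, and nothing is read from that count because it chose the genes. With so many genes called, a call alone says little about these genes. By size, and outside siMRGBP, only H2AFX in siTIP60 cells lay far out, as the 54th lowest of 8808. There H1F0 was the 1140th and H1FX the 2873rd lowest, and all 3 lay in the bulk of genes in siMRG15, siMRGX and siBRD8 cells.

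**Figure D2:**
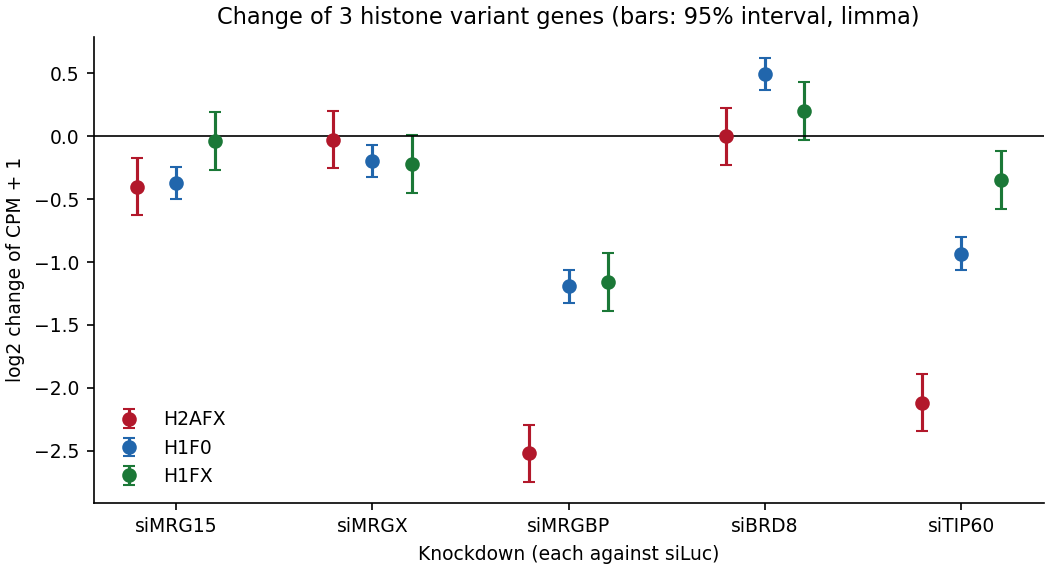
Log2 difference (CPM + 1) of H2AFX, H1F0 and H1FX in each knockdown against siLuc; points are limma estimates and bars 95% intervals. H2AFX is far below the other 2 genes in siMRGBP (-2.52) and siTIP60 (-2.12), and H1F0 in siBRD8 (0.49) is the only point whose interval lies wholly above 0.

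**Figure D3:**
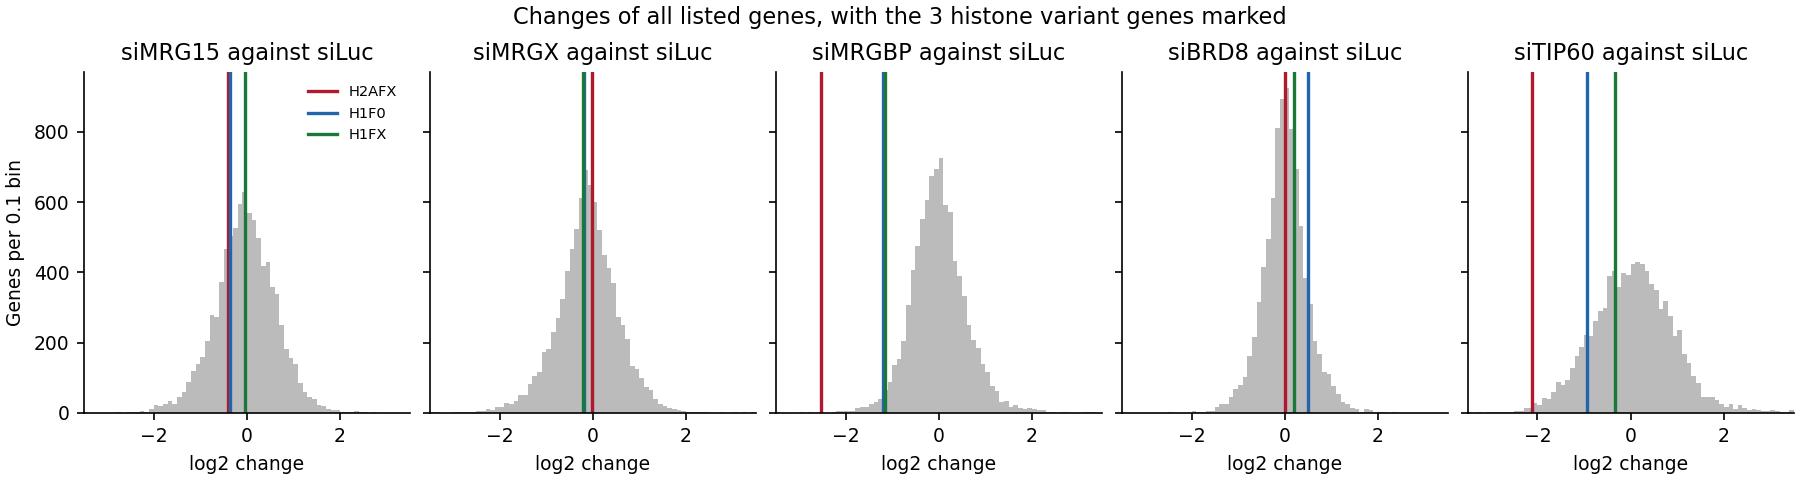
Number of genes per bin of 0.1 log2 difference for all 8808 genes in each knockdown against siLuc (grey, values beyond the range of 3.5 in either direction stacked in the end bins), with H2AFX, H1F0 and H1FX as vertical lines. H2AFX lies in the far lower tail in siMRGBP (rank 6 from the lowest) and siTIP60 (rank 54), H1F0 and H1FX lie in the lower tail in siMRGBP only, and all 3 lie in the bulk of genes in siMRG15, siMRGX and siBRD8.

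The order of levels began for all 3 genes with siMRGBP, whose low levels chose them, and then siTIP60. For H2AFX it ran on with siMRG15, siMRGX, siBRD8 and siLuc, for H1F0 with siMRG15, siMRGX, siLuc and siBRD8, and for H1FX with siMRGX, siMRG15, siLuc and siBRD8. For H2AFX the siMRGX, siBRD8 and siLuc libraries could not be ordered beyond their spread; for H1FX the siTIP60 and siMRGX libraries overlapped, and so did siMRG15 and siLuc. For H1F0 no neighbours in the order overlapped, and the share of all genes for which that holds was not counted. Between siMRGBP and siTIP60 the log2 difference was -0.40 for H2AFX, -0.26 for H1F0 and -0.81 for H1FX. No test is given, since siMRGBP chose the genes. H1FX stood at 78.0% of siLuc in siTIP60 and 43.9% in siMRGBP cells, and H2AFX at 22.5% and 16.9%. Nothing is read from these contrasts for the same reason.

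Differences between knockdowns that did not choose the genes were tested in 6 pairs. Setting siBRD8 against siTIP60, all 3 genes were higher in siBRD8 cells, by 2.12 (H2AFX, limma adjusted p = 1.62e-09), 1.43 (H1F0, 4.29e-10) and 0.55 (H1FX, 4.07e-04), where 76% of all genes were called. Setting siMRG15 against siTIP60, all 3 were higher in siMRG15 cells, by 1.72, 0.56 and 0.31 (limma adjusted p = 6.56e-09, 1.46e-06 and 0.0167), where 82.2% of genes were called. The H1FX call was lost without siMRG15 replicate 1 (limma adjusted p = 0.0700), without siMRG15 replicate 2 (0.0554) and without siTIP60 replicate 2, where the difference was 0.22 (0.144). Setting siMRGX against siTIP60, H2AFX and H1F0 were higher in siMRGX cells by 2.09 and 0.74 (limma adjusted p = 1.13e-09 and 9.75e-08), and H1FX by 0.13 without a call (95% interval -0.10 to 0.36, adjusted p = 0.269), where 83% of genes were called. Other scalings called that H1FX difference at more than 2 times its size: 0.34 with median-of-ratios factors (limma adjusted p = 0.00879), 0.32 with TMM factors (0.0131) and 0.34 in DESeq2 (0.00185). These pairs do not use the siLuc libraries for the difference itself, and the calls of H2AFX and H1F0 in them held in all 23 settings, those without either siLuc library included.

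The paralogs MRG15 and MRGX also differed. Setting siMRG15 against siMRGX, H2AFX was lower by 0.38 (limma adjusted p = 0.00537) and H1F0 by 0.18 (adjusted p = 0.0172) in siMRG15 cells, while the H1FX difference of 0.18 was not called (interval -0.05 to 0.41, adjusted p = 0.147), with 74.5% of all genes called. The H1F0 difference lost its call without siMRG15 replicate 1 and without either siMRGX library, and was -0.33 with median-of-ratios factors and in DESeq2. The H1FX difference was called by limma without either siLuc library (adjusted p = 0.0381 and 0.0380) and when only the compared groups were fitted (0.0146), and was 0.021 in DESeq2. Setting siMRG15 against siBRD8, H2AFX was lower by 0.40 (limma adjusted p = 0.00410) and H1F0 by 0.86 (5.93e-08), and H1FX at -0.24 was not called (adjusted p = 0.0608), with 67.9% of genes called. This missing call depended on the shared error, since limma called the same -0.24 without either siLuc library (adjusted p = 0.00904 and 0.00902) and with only the compared groups (4.12e-04). Setting siMRGX against siBRD8, H1F0 was lower by 0.69 (limma adjusted p = 5.88e-07) and H1FX by 0.42 (0.00390) in siMRGX cells, and H2AFX differed by -0.03 (interval -0.25 to 0.20, adjusted p = 0.838), with 64.2% of genes called. The H2AFX value turned to 0.11 to 0.15 under other scalings, again without a call. For H1FX no call remained under median-of-ratios scaling (-0.24, limma adjusted p = 0.0541) or without siMRGX replicate 1 (-0.33, 0.0525).

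Ratios of CPM within a library do not depend on library size; they are not corrected for transcript length and are compared only across libraries. H2AFX over H1FX was 0.980 and 0.987 in the siMRGBP libraries and 0.717 and 0.757 in the siTIP60 libraries, against 2.50 and 2.59 in the siLuc libraries. The 2 siLuc libraries, which differed for each gene alone, therefore gave nearly the same ratio. In the other knockdowns this ratio was 1.96 to 1.98 (siMRG15), 2.78 to 3.03 (siMRGX) and 2.19 to 2.23 (siBRD8). H2AFX over H1F0 was 0.148 in siMRGBP, 0.163 in siTIP60, 0.267 in siBRD8, 0.368 in siMRG15 and 0.423 in siMRGX cells on average, and 0.325 and 0.435 in the siLuc libraries. In siBRD8 cells, where this ratio lay below both siLuc libraries, H2AFX stood at 99.0% and H1F0 at 141% of siLuc. H1F0 over H1FX averaged 8.27 in siBRD8 and 4.52 in siTIP60 cells, on either side of the siLuc values of 5.96 and 7.68.

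Other histone variant genes varied in direction. CENPA and H2AFJ were lower in both siTIP60 and siMRGBP cells, as the 3 members were, while H2AFY2 was not. Of the 15 variant genes listed for comparison, 6 were in the table, the 3 described above and CENPA, H2AFJ and H2AFY2. CENPA, the centromeric H3 variant, fell by 1.58 ± 0.10 on the log2 scale in siTIP60 cells, and its siMRGBP difference was -0.64. H2AFY2, a macroH2A gene, rose by 0.90 ± 0.09 in siBRD8 and by 0.73 ± 0.09 in siMRG15 cells and was not called in siTIP60 cells (0.07, limma adjusted p = 0.482). CENPA was not called in siMRG15 (-0.10), siMRGX (0.16) or siBRD8 cells (0.24), and all 3 of these turned on the setting. In siMRGX cells it was called with median-of-ratios factors (0.32, limma adjusted p = 0.00816), TMM factors (0.28, 0.0212), in DESeq2 (0.32, 0.00358) and without siLuc replicate 1 (0.35), but was -0.031 without siLuc replicate 2. In siBRD8 cells it was called under filters of a mean of 1 and 5 CPM, with median-of-ratios factors and in DESeq2 (adjusted p 0.0469 to 0.0496), and without siLuc replicate 1 (0.44). In siMRG15 cells it was called at -0.29 without siLuc replicate 2 and was 0.093 without siLuc replicate 1. H2AFY2 was called lower in siMRGX cells (-0.33), a call that median-of-ratios factors and DESeq2 did not keep. H2AFJ, an H2A variant gene, rose in siMRGX cells by 0.67 ± 0.10, and its siMRGBP difference was -0.61; its siTIP60 fall of 0.31 was lost when siLuc replicate 1 or siTIP60 replicate 2 was left out. None of the 3 fell as far as H2AFX in siTIP60 cells. The same held in siMRGBP cells, but nothing is read from that, since the siMRGBP value chose H2AFX.

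Of the clustered linker histone genes, 2 were in the table. HIST1H1A, an H1 gene expressed in S phase, had 13.9 ± 0.503 CPM in siTIP60 and 36.9 ± 14.4 CPM in siMRGBP cells, against 167 ± 73.7 CPM in siLuc cells (SD, n = 2 each). It was called lower by limma in all 5 knockdowns, with log2 differences of -3.42 (siTIP60), -2.13 (siMRGBP), -1.84 (siMRGX), -1.83 (siBRD8) and -1.18 (siMRG15). Without siLuc replicate 2 the siMRG15 difference was -0.72, still called. In siBRD8 cells HIST1H1A therefore went the other way from H1F0. HIST1H1E, the gene of H1.4, was called lower in siTIP60 (-1.68), siMRGBP (-1.14) and siMRGX cells (-0.63, a call lost under other scalings, without either siMRGX library and, at -0.31, without siLuc replicate 2). Its values of -0.51 in siMRG15 and -0.49 in siBRD8 cells were not called, but limma called both without either siMRGBP library (adjusted p 0.0244 to 0.0342) and without siLuc replicate 1 (-0.83 and -0.82), and edgeR called the one in siMRG15 (adjusted p = 0.0481). Without siLuc replicate 2 they were -0.18 and -0.17. Clustered histone mRNA mostly lacks a poly(A) tail and its genes are near copies of each other, so these levels in a poly(A) library are uncertain.

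Genes that act on or with these histones, and genes of S phase, were also low in siTIP60 cells. Of 28 listed S-phase and replication genes, 26 were in the table, which holds only genes that the authors called. Of these 26, 25 fell and none rose in siTIP60 cells, where 37.7% of all genes were called lower and 41.1% higher. Their median was -1.43 beside a median of 0.05 over all 8808 genes. RRM2, a ribonucleotide reductase subunit, fell by 1.88 and TYMS, which makes thymidylate, by 2.08; E2F2, an activator of S-phase genes, was the only one of the 26 that fell further than H2AFX, by 2.65. In siMRGBP cells 21 of the 26 were lower and 2 higher, against 32.9% and 32.1% of all genes, with a median of -0.41 beside -0.02 over all genes. All of the 26 lay above H2AFX, which was at -2.52. The siMRGBP value of H2AFX chose the gene, so nothing is read from its distance to this list there. Both comparisons share the siLuc libraries, and the part of S-phase content in the H2AFX levels was not tested.

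In the other knockdowns these S-phase genes split, with 9 higher and 10 lower in siMRG15 (33.5% and 35.8% of all genes), 8 higher and 11 lower in siMRGX (28.2% and 40%), and 10 higher and 4 lower in siBRD8 cells (28.3% and 25.9%). With median-of-ratios factors and in DESeq2 7 in place of 11 were lower in siMRGX cells. Leaving out single libraries gave 1 to 4 lower in siBRD8 cells, with 1 lower without siBRD8 replicate 1 and without siLuc replicate 1. Their medians of 0.03, -0.12 and 0.13 lay close to the medians over all genes of -0.03, -0.10 and 0.01. In siMRG15 cells H2AFX, at -0.40, lay below the median of that list.

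Of 22 listed enzymes and readers of H2A.X phosphorylation, counted together with CHEK1 and CHEK2, 10 were in the table. In siTIP60 cells 8 of these 10 were lower and 1 higher, against 37.7% and 41.1% of all genes. The list median was -1.002 beside 0.05 over all genes. MDC1, the reader that binds phosphorylated H2A.X, fell by 1.33 ± 0.11, the checkpoint kinase genes CHEK1 and CHEK2 by 1.26 and 1.25, and the phosphatase genes PPM1D and EYA1 by 0.74 and 1.33. In siMRGBP cells 5 of these 10 were lower and 1 higher, against 32.9% and 32.1% of all genes, with a median of -0.30 beside -0.02; CHEK1 was at -0.77, and PPP2CA, a phosphatase catalytic subunit, was the one higher, at 0.40. There were 3 higher and 5 lower in siMRG15 cells (33.5% and 35.8% of all genes), 1 higher and 5 lower in siMRGX cells (28.2% and 40%) and 3 higher and 2 lower in siBRD8 cells (28.3% and 25.9%). The last of these counts is near the share over all genes, and the siMRGX count was 4 higher and 3 lower with median-of-ratios factors, 3 lower without siMRGX replicate 2 and none higher without any 1 of the siMRGX and siBRD8 libraries. The 1 gene higher in siTIP60 cells, TP53BP1 at 0.33, was not called without siLuc replicate 2. The medians of -0.18, -0.10 and -0.06 stood beside -0.03, -0.10 and 0.01 over all genes.

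Of 23 listed histone chaperone and exchange genes, 7 were in the table. Of these 7, 6 were lower in both siTIP60 and siMRGBP cells, where 37.7% and 32.9% of all genes were lower. Their medians were -1.14 and -0.37 beside 0.05 and -0.02 over all genes. ANP32E, the chaperone that removes H2A.Z from chromatin, was at -1.92 in siTIP60 and -1.62 in siMRGBP cells, and HJURP, the chaperone of CENP-A, at -1.60 and -1.03. NAP1L4, an H2A-H2B chaperone, was the exception in siMRGBP cells, where it had 103 ± 1.03 CPM against 49.1 ± 2.09 CPM in siLuc cells. That rise was not particular to siMRGBP: NAP1L4 was also higher in siMRGX (1.25), siMRG15 (1.14) and siBRD8 cells (0.89), and was not called in siTIP60 cells (0.01). In siMRG15 cells 1 was higher and 3 were lower (33.5% and 35.8% of all genes), in siMRGX cells 3 and 1 (28.2% and 40%) and in siBRD8 cells 2 and 3 (28.3% and 25.9%), with medians between -0.07 and 0.00. These counts are small: 1 in place of 3 was lower in siBRD8 cells without siBRD8 replicate 1, 2 in place of 1 were higher in siMRG15 cells without siLuc replicate 1, and 2 in place of 1 were lower in siMRGX cells without any 1 of the siMRGBP and siTIP60 libraries.

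Of 15 listed regulators of histone gene transcription and mRNA processing, 6 were in the table. Of these 6, 5 were lower in siTIP60 cells, where 37.7% of all genes were lower, with a median of -0.76 beside 0.05 over all genes. NPAT, the coactivator of clustered histone genes, fell there by 0.72 and SLBP, which binds the histone mRNA stem-loop, by 1.12. In siMRGBP cells 4 of 6 were lower and 1 was higher, against 32.9% and 32.1% of all genes, with a median of -0.42 beside -0.02. NPAT was at -0.33, and LSM11, a subunit of the particle that trims histone mRNA, was higher at 0.54. LSM11 was also called higher in siMRGX (0.97) and siMRG15 cells (0.68). It was not called higher in siBRD8 cells and was called lower in siTIP60 cells. In siMRG15 cells 2 of the 6 were higher and 1 lower (33.5% and 35.8% of all genes), in siMRGX cells 3 and 0 (28.2% and 40%) and in siBRD8 cells 0 and 1 (28.3% and 25.9%), with medians of 0.11, 0.30 and -0.01 beside -0.03, -0.10 and 0.01. Without siLuc replicate 1, 1 was lower in siMRGX cells; without siLuc replicate 2, 1 was higher and none lower in siBRD8 cells, and none was lower there without any 1 of the siBRD8 and siMRGX libraries.

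**Figure D4:**
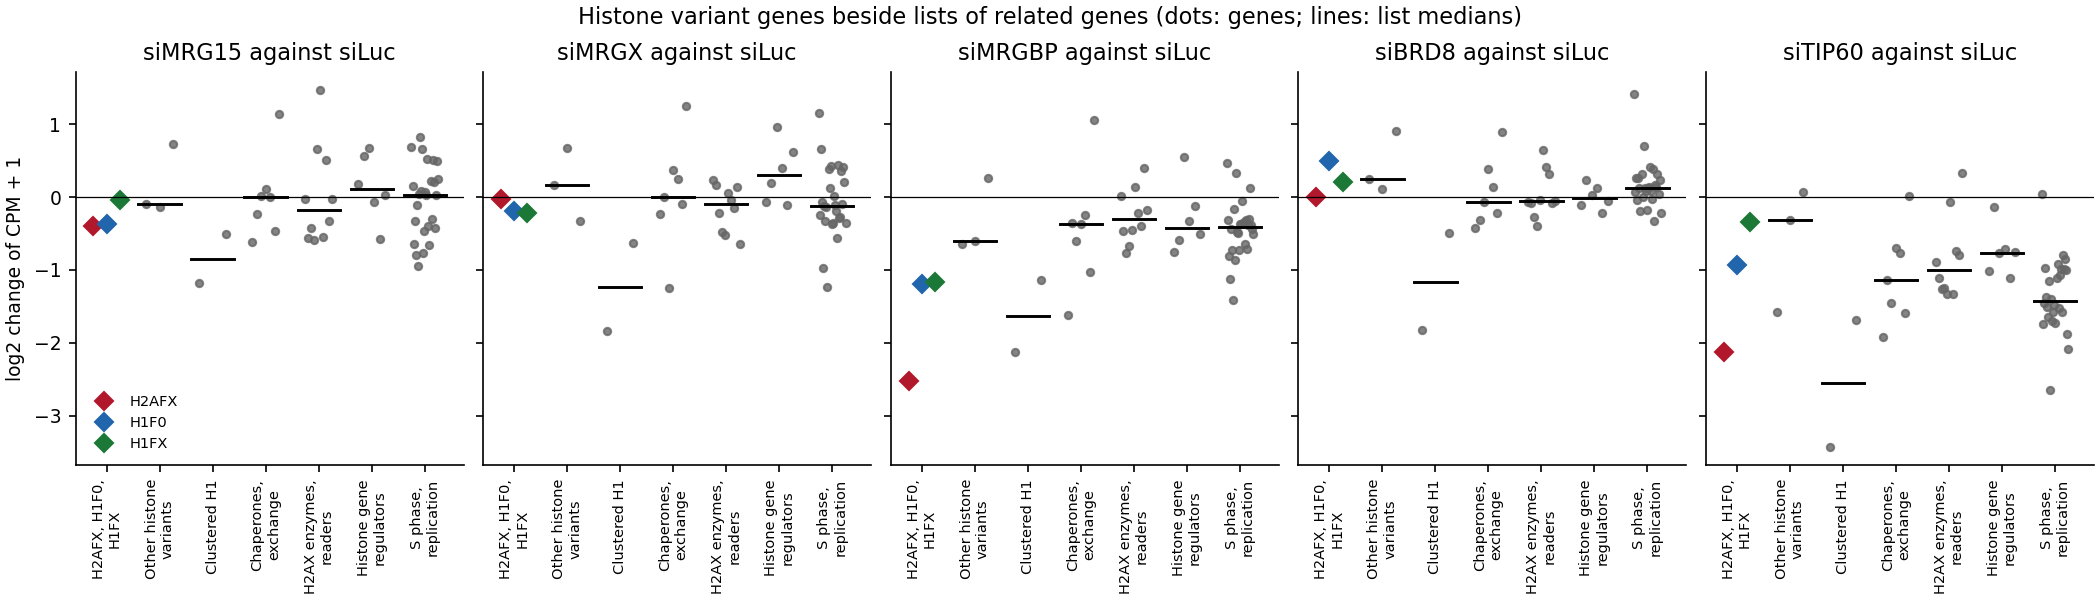
Log2 difference (CPM + 1) against siLuc in each knockdown for H2AFX, H1F0 and H1FX (coloured diamonds) and for the measured genes of 6 comparison lists (grey dots, black lines at list medians). In siMRGBP H2AFX lies below every dot, in siTIP60 the S-phase list sits low as a whole (median -1.43), and in siBRD8 HIST1H1A is low (-1.83) while H1F0 is high (0.49).

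Transcript marks that the authors deposited beside the gene table were read as given, since the rule behind them is not given in the sources used here. In the authors' deposited table both H2AFX transcripts were marked down in siMRGBP and in siTIP60 against siLuc, where 5.83% and 17.9% of 25895 transcripts carried that mark. One of the 2 was also marked down in siMRG15 and siMRGX in the authors' deposited table, where 13.0% and 14.1% of transcripts were. The authors' deposited table marked the single H1F0 and the single H1FX transcript down in siMRGBP against siLuc, and gave neither a mark in siBRD8 or siTIP60 against siLuc. It thus left H1F0 unmarked in siBRD8 and siTIP60, 2 comparisons in which limma called the gene. One H2AFX transcript was marked up in siMRGBP against siTIP60 in the authors' deposited table, although the gene level was lower in siMRGBP cells.

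The genes whose levels most resembled each member over the 12 libraries were ranked by Pearson r of log2(CPM + 1). These are descriptions: the libraries fall into 6 groups, depth and siLuc libraries are shared, and 5 genes of 8808 were taken at the top. For H2AFX they were CDC45, a part of the replicative helicase (r = 0.990), VANGL1, a planar polarity membrane protein (0.982), RAB31, a small GTPase of vesicle traffic (0.979), TMED8 (0.978) and CNOT2, a subunit of the CCR4-NOT deadenylase (0.975). CDC45 had 24.5 CPM in siMRGBP, 27.5 CPM in siTIP60, 43.5 CPM in siMRG15, 51.9 CPM in siMRGX and 53.3 CPM in siBRD8 cells on average, against 54.7 CPM in siLuc cells. Its pattern kept that likeness in the 8 libraries outside siMRGBP and siTIP60 (r = 0.889), whereas RAB31 (0.225) and CNOT2 (0.0646) did not, so their likeness rested on the low siMRGBP and siTIP60 values.

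For H1F0 the nearest were EIF4EBP2, a repressor of cap-dependent translation (0.980), the transcription factor gene GATA6 (0.971), C17orf53 (0.967), MEPCE, which caps 7SK RNA (0.957), and HIST1H4E, a clustered H4 gene (0.953). EIF4EBP2 shared the high siBRD8 level, with 291 CPM in siBRD8 against 205 CPM in siLuc cells, and its r was 0.997 in the 8 libraries outside siMRGBP and siTIP60. For H1FX they were C16orf80 (0.967), the sulfotransferase gene CHST2 (0.948), DGCR2 (0.947), CD99L2 (0.940) and FAM46C, a poly(A) polymerase (0.940). In the same 8 libraries r with H1FX was 0.936 for DGCR2 but 0.765 for CHST2, 0.660 for C16orf80, 0.635 for CD99L2 and 0.558 for FAM46C. The likeness of all but DGCR2 thus rested in part on the siMRGBP and siTIP60 values. By rank correlation only MEPCE, C16orf80 and DGCR2 stayed among the 5 nearest of their member. The members resembled each other less: r was 0.912 for H2AFX and H1F0, 0.844 for H2AFX and H1FX, and 0.853 for H1F0 and H1FX, and 54 other genes were nearer to H2AFX than H1F0 was.

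**Figure D5:**
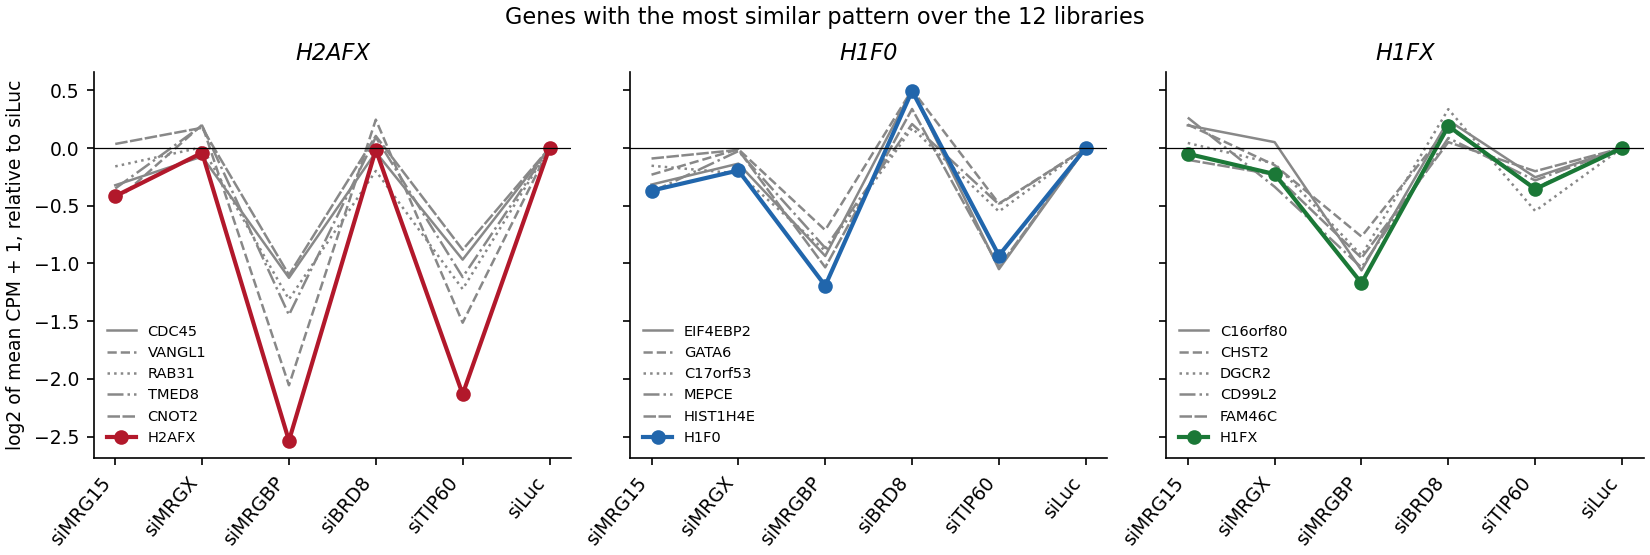
Group means as log2 of mean CPM + 1 relative to siLuc for H2AFX, H1F0 and H1FX (coloured lines, dots at groups) and the 5 genes most correlated with each over 12 libraries (grey lines). All lines dip in siMRGBP and siTIP60; H2AFX dips deepest of its panel, and the H1F0 panel peaks in siBRD8.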

How the data were processed

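RNA-seq libraries of U2OS cells, 12 in 6 siRNA groups of 2, were analysed, and 4 chromatin libraries of K562 cells were left aside. The tools minimap2 2.17-r941, featureCounts, Subread 2.0.0 and the build hg19 are named by the submitters' processing notes, with no role or order. The authors deposited CPM per gene, only for genes they called differentially expressed; 8813 rows were given, of which 5 repeated another, leaving 8808 genes, 15 of them with names altered by a spreadsheet and not named here. The authors also deposited 20 columns of up and down marks for 25895 transcripts, a score of 0 or 1 with no stated rule. CPM steps gave whole reads for 100% of values within 0.01 reads.

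Changes were fitted with limma 3.58.1 (R 4.3.3) with an intensity trend on log2(CPM + 1) over all 12 libraries and 6 group means, two-sided, with Benjamini-Hochberg adjustment over the 8808 genes and a threshold of 0.05; residual degrees of freedom were 6. A fold on this scale understates changes of low genes. edgeR 4.0.16 and DESeq2 1.42.0 on the recovered reads, other pseudocounts, filters and scalings, a replicate block and leaving out each library were alternatives. The fit was tested on simulated data. Because the table holds only genes called by the authors, shares of called genes are high. The members and the gene lists were chosen with earlier results of these data known. Named genes were the members, the targets, the other histone variant and linker genes, up to 5 genes per list by smallest adjusted p in siMRGBP or siTIP60, and the 5 genes most correlated with each member. TP53BP1 was added as the 1 gene of its list that was higher in siTIP60 cells. Promoters came from RefSeq (GRCh38.p14), which held 2 of the 3 members; names were matched through current symbols. Libraries of a group differed by more than sampling noise.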

Additional observations from a re-analysis of the deposited data

How the results depend on the processing

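Of 12 tested differences of the 3 genes against siLuc, 5 kept their direction and their side of the threshold in all 23 settings: H2AFX in siMRG15 and siTIP60, and H1F0 in siMRG15, siBRD8 and siTIP60. Of 276 such values, 250 did. The 3 untested siMRGBP differences kept their direction in all 69 values. The cause of the other moves was not tested, beyond which library was left out. With median-of-ratios factors, TMM factors and DESeq2, H2AFX in siMRGX vs siLuc was 0.14, 0.094 and 0.13 and H1F0 in siMRGX vs siLuc was -0.027, -0.074 and -0.027. H1FX in siMRG15 vs siLuc was 0.031 with TMM factors. H2AFX in siBRD8 vs siLuc was -0.0086 with median-of-ratios factors, -0.011 with TMM factors, -0.015 with edgeR and -0.023 with DESeq2. It was near 0 in these settings but not with either siLuc library left out. H2AFX in siMRGX vs siBRD8 was 0.15, 0.11 and 0.15 with median-of-ratios factors, TMM factors and DESeq2. These factors moved the median of all genes in siMRGX by up to 0.11 on the log2 scale, and the share of higher genes among those called there was 51.9% with median-of-ratios factors and 51.5% with DESeq2, beside 41.4% with the deposited scaling. H1FX in siTIP60 vs siLuc kept -0.35 but lost its call with only the compared groups (limma adjusted p = 0.0538).

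With each library left out in turn, the lowest and highest values were -0.24 and 0.19 for H2AFX in siMRGX vs siLuc, -2.73 and -2.31 for H2AFX in siMRGBP vs siLuc, and -0.21 and 0.21 for H2AFX in siBRD8 vs siLuc. They were -0.20 and -0.19 for H1F0 in siMRGX vs siLuc. For H1FX they were -0.23 and 0.15 in siMRG15 vs siLuc, -0.40 and -0.029 in siMRGX vs siLuc, -1.35 and -0.97 in siMRGBP vs siLuc, 0.015 and 0.39 in siBRD8 vs siLuc, and -0.53 and -0.16 in siTIP60 vs siLuc. For H2AFX in siMRGX vs siBRD8 they were -0.058 and 0.0048, for CENPA in siMRG15 vs siLuc -0.29 and 0.093, for CENPA in siMRGX vs siLuc -0.031 and 0.35, and for H2AFY2 in siTIP60 vs siLuc -0.020 and 0.16. H2AFY2 in siTIP60 vs siLuc was -0.00072 with TMM factors.

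With only genes of a mean of at least 5 CPM, limma called 3801 genes in siMRG15, 3820 in siMRGX, 3652 in siMRGBP and 4206 in siTIP60, against 6100, 6008, 5723 and 6940 without that filter, since fewer genes were tested. The replicate numbers did not pair the libraries (correlation of deviations -0.470 to 0.183 over 15 pairs of groups, 3 of them over 0.1). A replicate block changed no call of the 3 genes and gave 6029, 5907, 5629, 4632 and 6869 called genes in siMRG15, siMRGX, siMRGBP, siBRD8 and siTIP60. Counting error was small beside the gap between the siLuc libraries, which limits the small differences of H2AFX and H1FX.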

Other observations

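H1FX-AS1, the antisense gene at the start of H1FX, had 0.332 and 0.400 CPM in the siTIP60 libraries, 0.353 and 0.333 CPM in the siBRD8 libraries and 0.560 and 0.657 CPM in the siMRGX libraries. It had 0.768 and 1.21 CPM in the siMRGBP libraries and 1.44 and 1.16 CPM in the siMRG15 libraries, against 1.41 and 1.48 CPM in the siLuc libraries. It was therefore low both in siBRD8 cells, where H1FX had 121 and 119 CPM, and in siTIP60 cells, where H1FX had 87.3 and 76.8 CPM. H1FX-AS1 was nearer to its siLuc level in siMRGBP cells, where H1FX was lowest, and no relation between the 2 genes is read from these values. All these values are at or below 1.48 CPM, and no test was made of them.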
